A study of Homo sapiens with 17 samples.

Results

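The collagen genes of the human genome were followed through 10 RNA-seq libraries of head and neck cancer cell lines. Members were all rows of the count table whose symbol reads COL, a number, A and a number, which gave 44 genes of the 34496 in the table. The choice used the symbol alone and no measured value. Of the 44, 25 passed a low-count filter in the DMSO and inhibitor libraries, where 13241 genes of the table passed. The libraries labelled knockout with EPZ-6438 came from Cal27, a tongue squamous carcinoma line, labelled NSD1 knockout and grown in the presence of EPZ-6438. This compound, tazemetostat, inhibits EZH2, the methylase of histone H3 lysine 27. The labelled knockout with DMSO was the same labelled line given the solvent, and Cal27 with DMSO was the parental line given the solvent. There were 2 libraries of each. A separate untreated set held 1 library each of the labelled knockout, of SKN3, of BICR78 and of Cal27. NSD1 methylates lysine 36 of histone H3. A single labelled knockout line was sequenced and no label says whether it is a clone or a pool, so effects of that line and of NSD1 cannot be told apart. EPZ-6438 was given to the labelled knockout, and no library of parental cells with the inhibitor was analysed here. No label gives a dose, a duration or a separate culture for each replicate, so p-values cover only differences among these libraries, part of which may be technical.

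Collagens are secreted or membrane proteins whose 3 chains wind into a triple helix built from repeats of glycine and 2 further residues. Fibrillar types such as I, III and V form the cross-striated fibres of connective tissue. Type IV forms the sheet of the basement membrane under an epithelium, type VII anchors that sheet to the dermis or lamina propria, and type XVII spans the membrane of basal keratinocytes in the hemidesmosome. FACIT types decorate fibrils, and type VI forms beaded filaments. Carcinoma cells of squamous origin make basement membrane collagens themselves, while most type I and III collagen in a tumour comes from fibroblasts.

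The 6 DMSO and inhibitor libraries held 11745655 to 15509079 counts, and the 4 untreated libraries held 17587063 to 21738951 counts. Levels are CPM (counts scaled to library size) after TMM scaling within each set, and they depend on transcript length, so they are compared between libraries and not between genes. NSD1 itself stood at 160.2 and 149 CPM in the labelled knockout with EPZ-6438, 164 and 162 CPM with DMSO and 113 and 113 CPM in Cal27 with DMSO. In the untreated set it stood at 206 CPM in the labelled knockout, 81.5 in SKN3, 0.471 in BICR78 and 150.3 in Cal27. The transcript was thus higher in libraries labelled knockout than in Cal27, and counts per gene do not show whether it is edited. All 10 squamous epithelial markers were counted in every library. Of the 10 fibroblast markers, 5 passed the filter in the DMSO and inhibitor set. Over its 6 libraries PDPN ranged from 28.8 to 40.5 CPM, FBLN1 from 19.3 to 47.6, TWIST1 from 2.23 to 7.51, LUM from 0.462 to 2.74 and PDGFRB from 0.288 to 0.927, while PDGFRA, THY1, FAP, DCN and TCF21 reached no more than 0.741 CPM.

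Some rows differed widely between the 2 sets. COL17A1 stood 38.2-fold and COL18A1 24.3-fold higher in untreated Cal27 than in Cal27 with DMSO, and 17.1-fold and 13.6-fold higher in the untreated labelled knockout than in the labelled knockout with DMSO. Of 16 collagen genes with at least 100 counts in untreated Cal27, these 2 (12.5%) were at least 10-fold lower with DMSO, against 65 of 10739 genes of the table (0.605%). The cause of this gap was not tested, and levels are compared only within a set. COL18A1 and COL9A3 also overlap other counted genes in their span, SLC19A1 and TCFL5. Strand use in counting is not stated, so it is not known how reads in the shared stretch were credited.

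The first comparison set the labelled knockout with DMSO against Cal27 with DMSO. The basement membrane chains COL4A1 and COL4A2 were nearly 2-fold higher in the labelled knockout, and COL9A2, COL7A1, COL27A1 and COL16A1 were also higher. The type VI chains COL6A1 and COL6A2, the type I chains COL1A1 and COL1A2, COL5A1 and COL12A1 were lower. In all, 6 of 25 members rose (24%), against 16.4% of all tested genes, and 6 fell (24%), against 19.5% (edgeR quasi-likelihood test, Benjamini-Hochberg adjusted p below 0.05 over all tested genes). Over all tested genes 2169 rose and 2580 fell, and scaling by library size alone turned that split to 2978 and 2088. In either direction 12 members passed (48%), against 35.9%. These shares lie near those of the table, so the count is no result about collagens, and what follows describes single members. The median log2 change was -0.07 over the 25 members and -0.01 over all tested genes.

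COL4A1 and COL4A2 encode the 2 chains of the most widespread type IV collagen and lie head to head on chromosome 13, COL4A1 at chr13:110148963-110307157 and COL4A2 at chr13:110307284-110513209, with 126 bases between their starts (RefSeq, GRCh38.p14; the submitters' processing notes name hg38). The window from 250 bases before to 50 bases after the start of COL4A2, chr13:110307034-110307333 on the plus strand, therefore also holds the start of COL4A1, at base 124 of the window. It is printed because the 2 genes changed together, next to the windows of COL6A2 (chr21:46097862-46098161, plus strand) and COL7A1 (chr3:48595280-48595579, minus strand), which went in different directions. Capitals mark matches on either strand to the GC box GGGCGG, the CCAAT box and the TATA box TATAAA, which do not overlap each other here.
COL4A2: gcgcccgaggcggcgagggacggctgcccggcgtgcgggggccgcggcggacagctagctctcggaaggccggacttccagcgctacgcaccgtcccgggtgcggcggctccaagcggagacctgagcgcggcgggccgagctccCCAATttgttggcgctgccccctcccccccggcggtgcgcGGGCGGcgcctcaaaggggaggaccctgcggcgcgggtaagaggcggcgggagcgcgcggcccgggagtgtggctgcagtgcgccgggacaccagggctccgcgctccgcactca
COL6A2: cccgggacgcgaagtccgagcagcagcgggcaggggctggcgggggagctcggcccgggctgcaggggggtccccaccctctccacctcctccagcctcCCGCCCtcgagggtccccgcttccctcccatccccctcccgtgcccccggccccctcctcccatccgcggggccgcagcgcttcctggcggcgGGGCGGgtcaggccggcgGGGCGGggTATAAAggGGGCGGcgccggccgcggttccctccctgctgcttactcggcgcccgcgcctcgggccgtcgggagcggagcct
COL7A1: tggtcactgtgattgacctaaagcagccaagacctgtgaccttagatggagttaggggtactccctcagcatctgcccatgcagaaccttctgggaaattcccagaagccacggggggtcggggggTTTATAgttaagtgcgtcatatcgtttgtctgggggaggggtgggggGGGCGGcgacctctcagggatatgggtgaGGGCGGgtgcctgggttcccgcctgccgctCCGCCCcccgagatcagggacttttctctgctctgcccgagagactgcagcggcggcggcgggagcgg
The shared type IV window holds 1 GC box and 1 CCAAT box and no TATA box, while the window of COL6A2 holds 4 GC boxes and a TATA box, and that of COL7A1 holds 3 GC boxes and a TATA box that reads on the opposite strand. Windows were given for 32 of the 44 members, and among these 18 held a GC box, 10 a CCAAT box and 5 a TATA box. Of 27305 windows in the same RefSeq table, 1 per gene, 44.6%, 35.7% and 12% did. The windows of COL4A4, COL6A6, COL9A1, COL21A1, COL24A1, COL26A1, COL27A1 and COL28A1 do not lie at the start of the gene's span. Those of COL4A1 and COL4A2 share 226 bases and are counted for both genes. The AP-1 site TGACTCA was found in 0 of the 32, against 4.92% of all windows. These are matches of letters and say nothing about which factor binds.

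COL4A1 stood at 273 and 255 CPM in the labelled knockout with DMSO, against 140.0 and 132 CPM in Cal27 with DMSO. COL4A2 stood at 491 and 499.9 CPM, against 275 and 266 CPM in Cal27. Both knockout libraries lay above both Cal27 libraries for each gene, and the log2 changes were 0.96 ± 0.04 and 0.87 ± 0.03 (SE; edgeR, adjusted p = 1.9e-11 and 3.3e-12). The other measured pair of type IV chains, COL4A5 and COL4A6, is also arranged head to head, with 379 bases between the genes on the X chromosome. COL4A5 was at 33.5 and 31.2 CPM in the labelled knockout and 33.4 and 34.9 CPM in Cal27, and COL4A6 at 14.9 and 15.6 CPM in the labelled knockout and 16.0 and 13.9 CPM in Cal27. Neither passed the test, with log2 values of -0.08 ± 0.08 and 0.02 ± 0.12 (SE). The third pair, COL4A3 and COL4A4, had at most 5 counts in any of the 6 libraries.

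**Figure D1:**
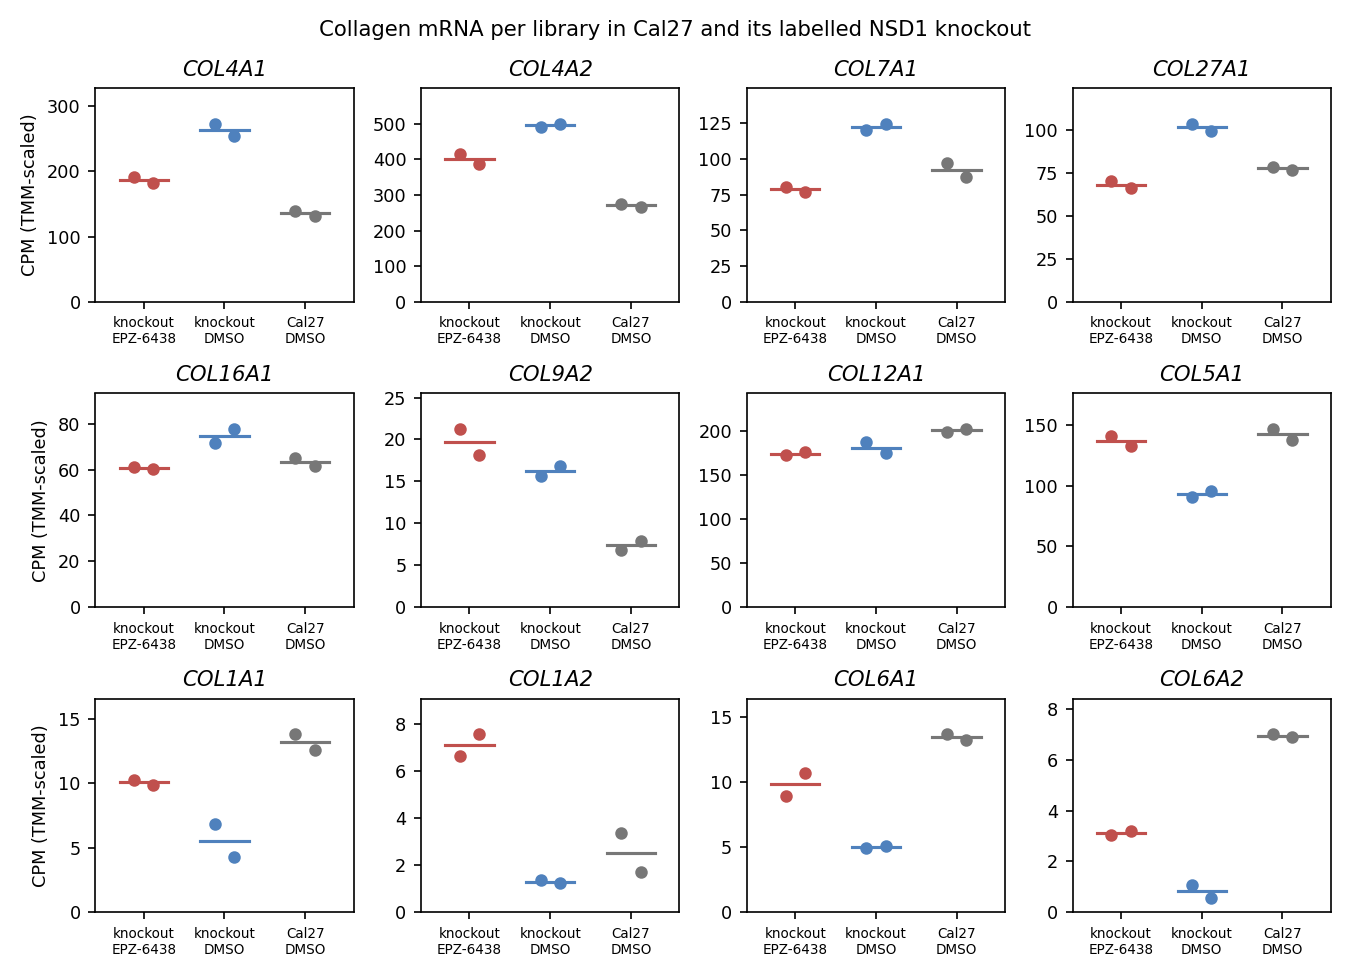
Level of 12 collagen genes in CPM (y axis, from 0, a separate scale in each panel) in the labelled knockout with EPZ-6438, the labelled knockout with DMSO and Cal27 with DMSO (x axis); points are libraries and lines the means of 2. COL4A1 and COL4A2 are highest in the labelled knockout with DMSO, and COL5A1, COL6A1 and COL6A2 are lowest there.

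Among fibrillar collagens the labelled knockout was lower for 3 chains and higher for 1. COL5A1, the main chain of type V collagen, which starts and limits the width of type I fibrils, stood at 90.9 and 95.5 CPM in the labelled knockout with DMSO, against 147 and 138 CPM in Cal27 with DMSO. Its groups did not overlap, and it fell by 0.61 ± 0.05 on the log2 scale (SE; edgeR, adjusted p = 2.9e-08). COL1A1, one of the 2 chains of type I collagen, stood at 6.85 and 4.25 CPM, against 13.8 and 12.6 CPM in Cal27, and fell by 1.26 ± 0.18 (log2, SE; adjusted p = 2.7e-05). Its partner COL1A2 was low everywhere, at 1.39 and 1.22 CPM against 3.36 and 1.70 CPM in Cal27, and fell by 0.95 ± 0.34 (log2, SE; adjusted p = 0.038). That last call is not stable. Without replicate 1 of Cal27 the log2 change was -0.38 (edgeR, adjusted p = 0.51), it was lost without any of the labelled knockout libraries, with or without the inhibitor (adjusted p from 0.055 to 0.16), and DESeq2 gave an adjusted p of 0.12. With the replicate number as a block the adjusted p was 0.056. COL27A1, a fibrillar collagen best known from cartilage, went the other way, at 103 and 99.3 CPM against 78.3 and 76.9 CPM in Cal27, and rose by 0.38 ± 0.05 (log2, SE; adjusted p = 9.8e-06). COL3A1, COL5A2 and COL11A2 stood at or below 1.09 CPM in these 4 libraries and did not pass the test.

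The largest decrease among the called members was in a type VI chain. COL6A2 (chr21:46098112-46132848) stood at 1.08 and 0.576 CPM in the labelled knockout with DMSO, against 7.00 and 6.89 CPM in Cal27 with DMSO. Its neighbour COL6A1 (chr21:45981770-46005048) stood at 4.93 and 5.11 CPM, against 13.6 and 13.2 CPM in Cal27. The libraries of the 2 groups did not overlap for either gene, and the genes changed by -3.07 ± 0.29 and -1.42 ± 0.15 on the log2 scale (SE; edgeR, adjusted p = 2.8e-07 and 1.2e-06). COL6A3, the long chain that type VI collagen needs to assemble with the other 2, had 4 to 12 counts in each of the 6 libraries and did not pass the filter.

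Of the collagens at the epithelial junction, COL7A1, which forms anchoring fibrils, stood at 120.1 and 124 CPM in the labelled knockout with DMSO, against 97.0 and 87.4 CPM in Cal27 with DMSO, and rose by 0.41 ± 0.05 (log2, SE; edgeR, adjusted p = 8.6e-06). COL17A1, far below its untreated level, stood at 32.1 and 26.6 CPM, against 27.6 and 28.1 CPM in Cal27, with a log2 value of 0.07 ± 0.09 that did not pass. Among FACIT collagens, COL9A2 stood at 15.6 and 16.8 CPM, against 6.86 and 7.86 CPM in Cal27, and rose by 1.14 ± 0.13 (log2, SE; adjusted p = 3.1e-06). Its assembly partner COL9A3 did not pass, at 11.0 and 11.3 CPM against 10.6 and 10.8 CPM in Cal27, and the third chain COL9A1 had 2 counts over all 6 libraries. COL16A1 stood at 71.6 and 77.8 CPM in the labelled knockout and 65.1 and 61.5 CPM in Cal27, and COL12A1 at 188 and 175 CPM in the labelled knockout and 199 and 202 CPM in Cal27. COL16A1 rose by 0.24 ± 0.06 and COL12A1 fell by 0.15 ± 0.04 (log2, SE; adjusted p = 0.0029 and 0.0058), both small shifts in well counted genes. Both calls were lost without replicate 2 of the labelled knockout with DMSO (adjusted p = 0.067 and 0.13), and that of COL12A1 also with library size alone (adjusted p = 0.055). COL8A1, COL8A2, COL13A1, COL18A1, COL21A1 and COL28A1 did not pass the test, with log2 values from -0.97 for COL13A1 to 0.09 for COL8A1.

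Counts from bulk samples cannot tell fewer cells of a type from less RNA per cell. Of the 5 tested fibroblast markers, 1 rose and 3 fell in the labelled knockout with DMSO. Among all tested genes 16.4% rose and 19.5% fell, and lists of 5 or fewer tested genes are too short to read as a result about a cell type. LUM, 1 of the 3 that fell, had an adjusted p of 0.071 with DESeq2 and was not called there. Its log2 change of -1.61 moved to -1.18 without replicate 2 of Cal27. It was -1.20 without replicate 1 of the labelled knockout with DMSO and -2.21 without replicate 2. The summed level of the 10 listed fibroblast markers ran from 61.1 to 65.2 CPM in the labelled knockout with DMSO. In Cal27 with DMSO it ran from 72.9 to 75.0 CPM, and most of it came from FBLN1 and PDPN. PDGFRA and THY1 had no count in the labelled knockout with DMSO. The squamous epithelial list fell in 8 of 10 cases and rose in 1, and its sum ran from 3965 to 4079 CPM in the labelled knockout and from 8688 to 8762 CPM in Cal27. Of 3 tested immune markers 2 rose, and the sum of that list of 6 ran from 175 to 179 CPM in the labelled knockout and from 81.5 to 81.8 CPM in Cal27, with no count of CD3E in either group. Of 3 tested endothelial markers 1 rose and 2 fell, with sums of 20.5 to 22.9 CPM in the labelled knockout and 17.3 to 17.4 CPM in Cal27. VWF, 1 of the 2 that fell, passed the filter only through Cal27 with DMSO, so its direction was fixed by the filter. Of 2 tested smooth muscle markers 1 fell, with sums of 2.23 to 2.52 CPM in the labelled knockout and 2.89 to 3.57 CPM in Cal27. The other, MYH11, was not called and passed the filter only through the labelled knockout with DMSO. The part of these shifts in the collagen values was not tested.

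The second comparison set EPZ-6438 against DMSO within the labelled knockout. With the inhibitor COL1A1, COL1A2, COL3A1, COL5A1, COL6A1 and COL6A2 were higher, as were COL4A5, COL8A2, COL13A1 and COL18A1. COL4A1, COL4A2, COL7A1, COL27A1, COL16A1, COL9A3 and COL17A1 were lower. Of 25 members, 10 rose (40%), against 25.6% of all tested genes, and 7 fell (28%), against 23.9% (edgeR, adjusted p below 0.05). In either direction 17 members passed (68%), against 49.6% of all tested genes. The median log2 change was 0.43 over the 25 members and 0.00 over all tested genes. COL3A1 passed the low-count filter only through the EPZ-6438 libraries, so among tested genes it had to be higher there, and the counts and the median are given as a description. Over all tested genes 3.83% passed through 1 group alone. This comparison shares the labelled knockout DMSO libraries with the first one, so the 2 are not independent, and the values of each are given side by side.

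COL1A2 stood at 6.66 and 7.57 CPM with EPZ-6438, against 1.39 and 1.22 CPM with DMSO, and rose by 2.45 ± 0.30 (log2, SE; edgeR, adjusted p = 3.2e-06). COL3A1, the chain of type III collagen, stood at 2.19 and 4.01 CPM, against 0.539 and 0.504 CPM with DMSO, and rose by 2.58 ± 0.47 (adjusted p = 2.4e-04). Both were near the limit of counting with DMSO, at 18 and 17 counts for COL1A2 and 7 and 7 counts for COL3A1, which entered the test only through its 26 and 63 counts with EPZ-6438. COL1A1 stood at 10.3 and 9.86 CPM with EPZ-6438, against 6.85 and 4.25 CPM with DMSO, a smaller increase of 0.86 ± 0.18 (log2, SE; adjusted p = 8.3e-04). COL5A1 stood at 141 and 133 CPM, against 90.9 and 95.5 CPM with DMSO, and rose by 0.55 ± 0.05 (adjusted p = 5.7e-08). The fibrillar gene that went down was COL27A1, at 70.4 and 65.8 CPM with EPZ-6438 against 103 and 99.3 CPM with DMSO, which fell by 0.58 ± 0.05 (log2, SE; adjusted p = 5.7e-08).

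COL6A2 stood at 3.03 and 3.18 CPM with EPZ-6438, against 1.08 and 0.576 CPM with DMSO, and COL6A1 at 8.93 and 10.7 CPM, against 4.93 and 5.11 CPM with DMSO. The groups did not overlap, and the genes rose by 1.91 ± 0.32 and 0.97 ± 0.15 (log2, SE; edgeR, adjusted p = 1.0e-04 and 6.1e-05). COL4A1 stood at 192 and 182 CPM with EPZ-6438, against 273 and 255 CPM with DMSO, and COL4A2 at 414 and 387 CPM, against 491 and 499.9 CPM with DMSO. They changed by -0.50 ± 0.04 and -0.31 ± 0.03 (log2, SE; adjusted p = 3.0e-08 and 7.3e-07). COL4A5, at 41.2 and 36.6 CPM with EPZ-6438 and 33.5 and 31.2 CPM with DMSO, rose by 0.26 ± 0.08 (log2, SE; adjusted p = 0.0097), a call that was lost without replicate 1 of the EPZ-6438 libraries (adjusted p = 0.11), without replicate 2 of the labelled knockout with DMSO (adjusted p = 0.098) and with DESeq2 (adjusted p = 0.053). COL4A6 had a log2 value of -0.04 ± 0.12 (SE) and did not pass.

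COL7A1 stood at 80.4 and 76.7 CPM with EPZ-6438, against 120.1 and 124 CPM with DMSO, and fell by 0.64 ± 0.05 (log2, SE; edgeR, adjusted p = 2.8e-08). COL16A1 stood at 61.4 and 60.3 CPM with EPZ-6438 and 71.6 and 77.8 CPM with DMSO, and COL17A1 at 22.0 and 23.8 CPM with EPZ-6438 and 32.1 and 26.6 CPM with DMSO. COL16A1 fell by 0.30 ± 0.06 and COL17A1 fell by 0.35 ± 0.09 (log2, SE; adjusted p = 3.2e-04 and 0.0056). The call of COL17A1 was lost without replicate 1 of the labelled knockout with DMSO (log2 -0.21, adjusted p = 0.11). COL9A3 stood at 8.09 and 6.62 CPM, against 11.0 and 11.3 CPM with DMSO, and fell by 0.61 ± 0.14 (adjusted p = 0.0019). Its partner COL9A2, at 21.2 and 18.1 CPM against 15.6 and 16.8 CPM with DMSO, narrowly did not pass (adjusted p = 0.055). COL9A2 was called as higher with a filter of at least 5 CPM in 2 libraries and with a robust spread estimate (edgeR, adjusted p = 0.036 and 0.042). Over the alternative runs its log2 change lay between 0.16 and 0.39. COL8A2, a chain of the corneal and vascular network collagen VIII, stood at 12.8 and 11.2 CPM, against 7.47 and 5.90 CPM with DMSO, and rose by 0.84 ± 0.16 (log2, SE; adjusted p = 2.6e-04). COL18A1, whose cleaved end is endostatin, stood at 11.5 and 12.8 CPM, against 6.70 and 7.99 CPM with DMSO, and rose by 0.73 ± 0.15 (adjusted p = 7.2e-04). Its overlap with SLC19A1 holds here. The transmembrane collagen COL13A1 had 22 and 22 counts with EPZ-6438, against 6 and 6 counts with DMSO, and rose by 1.83 ± 0.46 (log2, SE; adjusted p = 0.0033). COL5A2, COL8A1, COL11A2, COL12A1, COL21A1 and COL28A1 did not pass, with log2 values from -0.05 for COL12A1 to 1.13 for COL5A2.

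**Figure D2:**
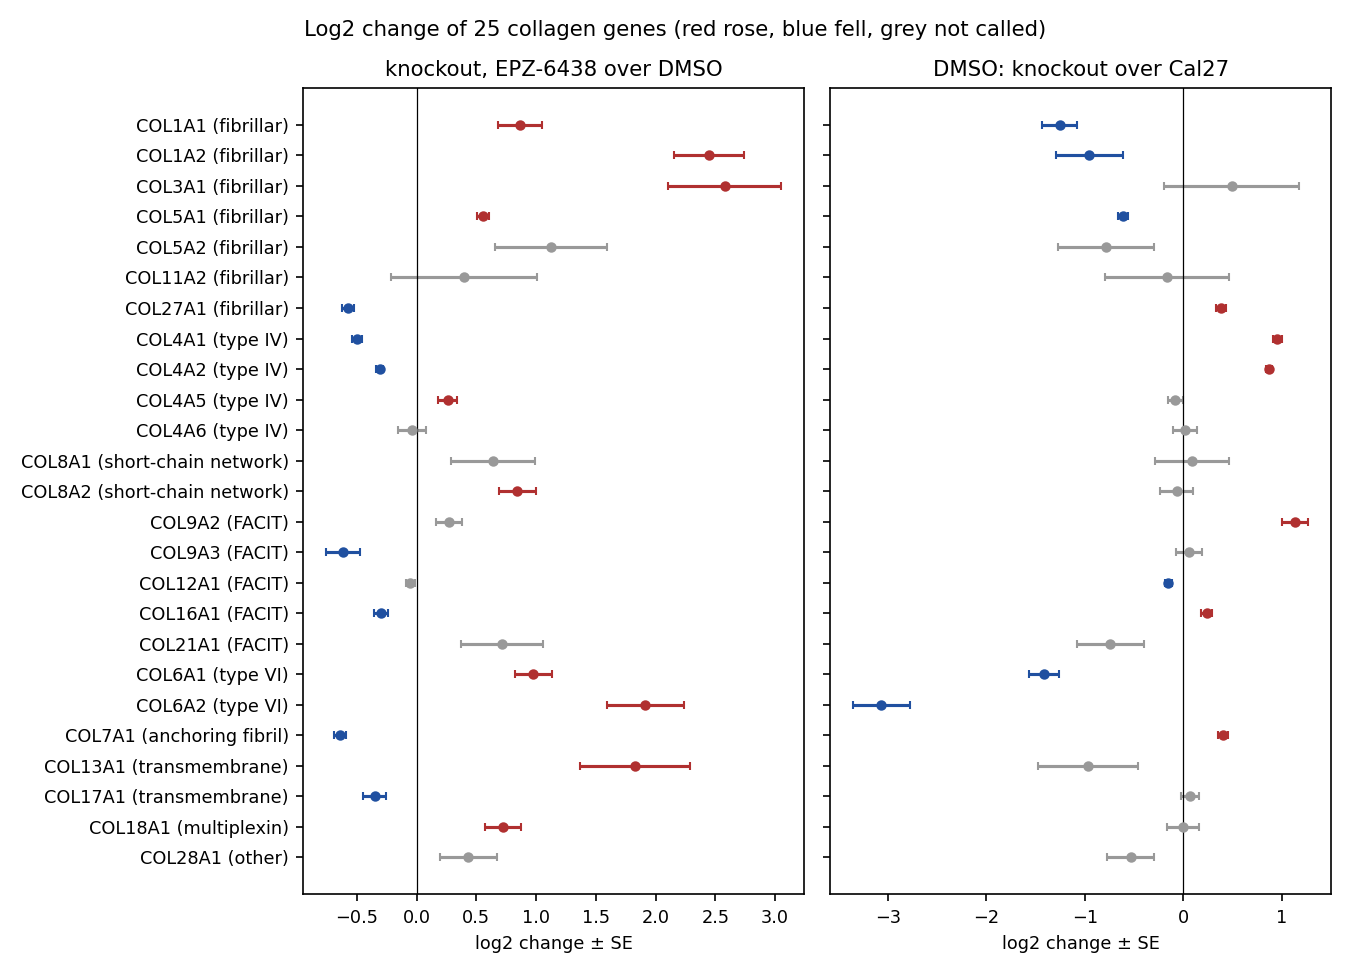
Log2 change with its SE (x axis) of the 25 tested collagen genes (rows, with their class) for EPZ-6438 over DMSO in the labelled knockout (left) and for the labelled knockout over Cal27, both with DMSO (right); red rose, blue fell and grey did not pass. The panels share the labelled knockout DMSO libraries, and the largest decrease on the right is COL6A2 at -3.07.

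In this comparison 3 of 5 tested fibroblast markers rose and 1 fell, where 25.6% of all tested genes rose and 23.9% fell. Those shares stand beside the other marker lists too, and lists of 5 or fewer tested genes are too short to read as a result. The summed level of the 10 listed fibroblast markers ran from 88.8 to 89.7 CPM with EPZ-6438 and from 61.1 to 65.2 CPM with DMSO. THY1 had no count with EPZ-6438, and FBLN1, a secreted matrix protein, rose by 1.25 ± 0.07 (log2, SE; edgeR, adjusted p = 4.8e-10). Of 2 tested smooth muscle markers 1 rose, with sums of 5.79 to 6.24 CPM with EPZ-6438 and 2.23 to 2.52 CPM with DMSO, and DES had no count with EPZ-6438. Of 3 tested immune markers 2 rose, with sums of 228 to 234 CPM with EPZ-6438 and 175 to 179 CPM with DMSO. Of 3 tested endothelial markers 1 rose, with sums of 26.3 to 28.8 CPM with EPZ-6438 and 20.5 to 22.9 CPM with DMSO. The endothelial marker that rose, PECAM1, passed the filter only through the EPZ-6438 libraries, so its direction was fixed by the filter. Of the 10 squamous epithelial markers 7 fell and 2 rose, with sums of 2698 to 2729 CPM with EPZ-6438 and 3965 to 4079 CPM with DMSO. Their part in the collagen values was not tested.

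The inhibitor-treated labelled knockout was also compared with the parental line in DMSO. Here 7 of 25 members were higher (28%), against 26.1% of all tested genes, and 7 were lower (28%), against 25.9% (edgeR, adjusted p below 0.05). Together 56% of the members and 52% of all tested genes passed, again close to each other. COL4A1 and COL4A2 still stood above Cal27, by 0.46 ± 0.04 and 0.56 ± 0.03 (log2, SE; adjusted p = 1.9e-07 and 6.1e-10). COL6A2 still stood below it, by -1.16 ± 0.23 (adjusted p = 4.2e-04). COL5A1 did not pass, at 141 and 133 CPM with EPZ-6438 against 147 and 138 CPM in Cal27 and a log2 value of -0.06 ± 0.05 (SE). COL1A2, COL3A1, COL8A2, COL9A2 and COL18A1 were higher than in Cal27, by log2 values of 1.49 ± 0.26, 3.07 ± 0.50, 0.77 ± 0.15, 1.41 ± 0.13 and 0.73 ± 0.15 (SE). The value of COL3A1, again a gene in the test only through the EPZ-6438 libraries, rests on 8 and 2 counts in Cal27. It was 4.33 without replicate 1 of Cal27 and 2.42 without replicate 2 of Cal27 (edgeR, adjusted p = 0.00021 and 0.0024). COL7A1, COL27A1, COL12A1, COL9A3, COL6A1 and COL17A1 were lower, by values between -0.55 for COL9A3 and -0.19 for COL27A1. The calls of COL6A1 and COL17A1 were lost with DESeq2 (adjusted p = 0.092 and 0.086). They were also lost without replicate 1 of Cal27 (edgeR, adjusted p = 0.060 and 0.063) and without replicate 1 of the EPZ-6438 libraries (adjusted p = 0.10 and 0.13), and that of COL17A1 also without replicate 2 of Cal27 (adjusted p = 0.085) and with library size alone (adjusted p = 0.059). COL1A1 and COL4A5 lay just short of the threshold (adjusted p = 0.050 and 0.055). The calls of COL27A1 and COL9A3 were lost without replicate 2 of the EPZ-6438 libraries (adjusted p = 0.078 and 0.068).

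The ratio between chains of one collagen type, taken within each library, shows which chains kept step. COL4A2 over COL4A1 was 2.16 and 2.12 with EPZ-6438, 1.80 and 1.96 in the labelled knockout with DMSO and 1.97 and 2.02 in Cal27 with DMSO. COL6A2 over COL6A1 was 0.340 and 0.298 with EPZ-6438, 0.219 and 0.113 in the labelled knockout with DMSO and 0.513 and 0.522 in Cal27. COL1A2 over COL1A1 was 0.648 and 0.768 with EPZ-6438, 0.202 and 0.288 in the labelled knockout with DMSO and 0.243 and 0.135 in Cal27. COL4A6 over COL4A5 was 0.395 and 0.370 with EPZ-6438, 0.444 and 0.498 in the labelled knockout with DMSO and 0.480 and 0.399 in Cal27. The ratio of COL4A2 to COL4A1 thus stayed within a narrow range. The type VI ratio was lowest of the 3 groups in the labelled knockout with DMSO, and the type I ratio was highest of the 3 with EPZ-6438. These ratios depend on transcript length and are not chain stoichiometries, and they were not tested.

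The untreated pair repeats the contrast of labelled knockout and Cal27 with 1 library each, without replicates and without any library shared with the DMSO set. Values are ratios of CPM with an exact 95% interval for 2 counts, which covers counting error only. COL4A1 stood at 157 CPM in the untreated labelled knockout and 109.9 CPM in untreated Cal27, a log2 ratio of 0.52 (95% interval 0.44 to 0.60). COL4A2 stood at 373 CPM in the untreated labelled knockout and 249 CPM in untreated Cal27, a log2 ratio of 0.58 (95% interval 0.53 to 0.63). Both were on the higher side, as with DMSO. COL9A2 was higher by 2.22 (95% interval 1.90 to 2.55) and COL6A2 lower, at -1.76 (95% interval -2.25 to -1.30) on the log2 scale. Of 26 collagen genes with at least 20 counts over both libraries, 1 was 2-fold or more higher (3.85%) and 4 were 2-fold or more lower (15.4%), against 6.51% and 9.6% of all such genes. The first is COL9A2 and the others are COL6A2, COL13A1, COL17A1 and COL21A1. COL13A1 had 3 counts in the labelled knockout and 18 in Cal27 (95% interval of the log2 ratio -5.05 to -0.87). COL21A1 had 11 counts in the labelled knockout and 40 in Cal27 (95% interval -3.03 to -0.93). The intervals of COL13A1 and COL21A1 thus include changes of less than 2-fold.

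Of the 12 members called with DMSO, 8 (66.7%) lay on the same side in the untreated pair with an interval that excludes no change, and 4 (33.3%) lay on the opposite side. Over all 4668 called genes with enough counts the shares were 64.3% and 14.1%, and the rest had an interval that includes no change. Each of the 12 members had an interval that excludes it. The interval narrows as counts grow, so the shares of members and of all genes are not directly comparable. The 4 members on the opposite side are COL5A1, COL1A1, COL7A1 and COL27A1. COL5A1 stood at 253 CPM in the untreated labelled knockout and 165 CPM in untreated Cal27, a log2 ratio of 0.62 (95% interval 0.56 to 0.68), where the DMSO set gave -0.61 ± 0.05 (SE). COL1A1 stood at 22.9 CPM in the untreated labelled knockout and 16.5 CPM in untreated Cal27, a log2 ratio of 0.47 (95% interval 0.27 to 0.68), where the DMSO set gave -1.26 ± 0.18 (SE). COL7A1 and COL27A1 were lower in the untreated labelled knockout, with log2 ratios of -0.38 (95% interval -0.44 to -0.31) and -0.34 (95% interval -0.42 to -0.26). The difference between the sets was not tested, and in these libraries the direction of the 4 genes differed with the set. COL17A1 and COL18A1, both far higher in this set, stood at 495 and 98.6 CPM in the untreated labelled knockout and 1080.2 and 181 CPM in untreated Cal27, log2 ratios of -1.13 (95% interval -1.16 to -1.09) and -0.88 (95% interval -0.96 to -0.80). COL4A5 and COL4A6 gave ratios of opposite sign, 0.32 (95% interval 0.18 to 0.47) and -0.81 (95% interval -1.11 to -0.51).

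**Figure D3:**
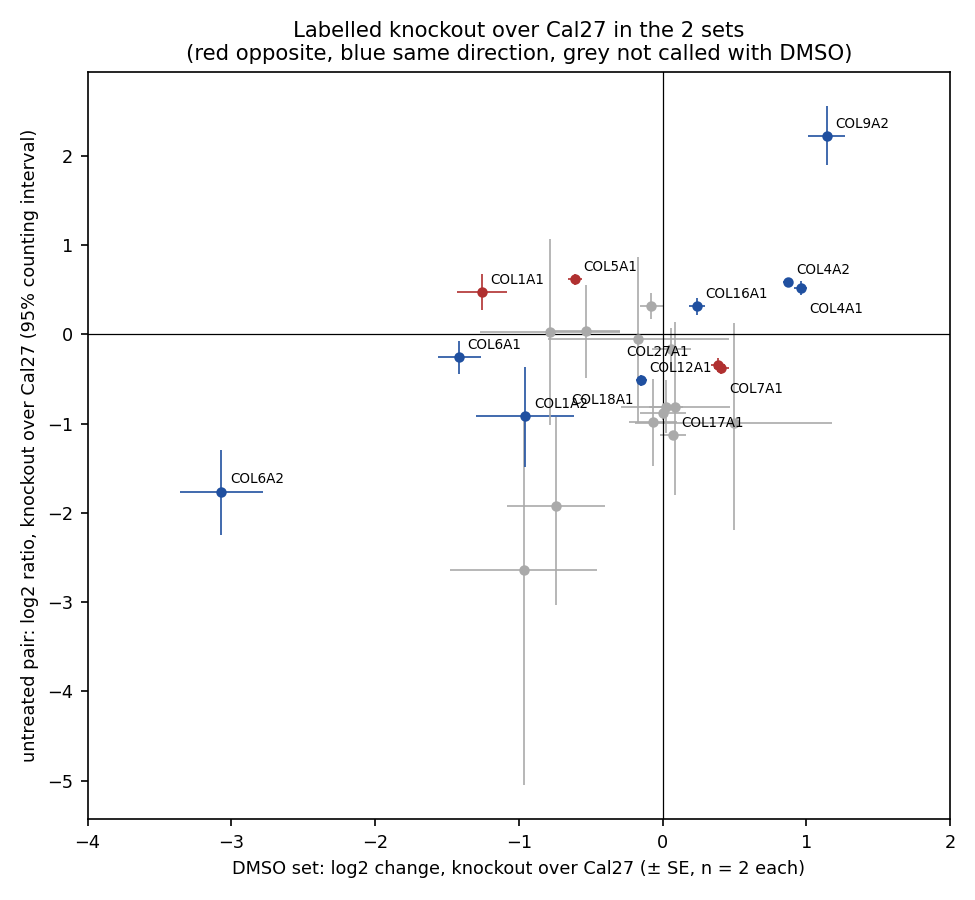
Labelled knockout over Cal27 for the 25 tested collagen genes: log2 change with DMSO and its SE (x axis, 2 libraries each) against the log2 ratio of the untreated pair with its 95% counting interval (y axis, 1 library each). Blue genes lie on the same side in both sets, red genes (COL1A1, COL5A1, COL7A1, COL27A1) on opposite sides, and grey genes were not called with DMSO.

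Among the untreated lines, SKN3 lay 2-fold or more from Cal27 in more collagen genes than BICR78 did. Of 31 members with at least 20 counts over both libraries, 19 were 2-fold or more higher in SKN3 (61.3%), against 22.6% of all such genes, and 4 were 2-fold or more lower (12.9%), against 18.7%. In BICR78, 11 of 29 members were 2-fold or more higher (37.9%), against 18.3% of all such genes, and 7 were lower (24.1%), against 10.6%. With 1 library per line these are differences between libraries, and no p-value is given.

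Type V collagen showed the sharpest contrast between lines. COL5A2 stood at 747 CPM in SKN3 (13574 counts) and 0.815 CPM in Cal27 (17 counts), a ratio of 916-fold (95% interval 572 to 1574). In BICR78 it stood at 338 CPM, a ratio to Cal27 of 415-fold (95% interval 259 to 713). COL5A1 ran the other way, at 0.330 CPM in SKN3 (6 counts), 54.1 CPM in BICR78 and 165 CPM in Cal27. SKN3 thus had ample COL5A2 and almost no COL5A1, Cal27 the reverse, and BICR78 had both. The third type V chain, COL5A3, stood at 2.15 CPM in SKN3, 12.1 CPM in BICR78 and 0.527 CPM in Cal27. COL3A1, whose gene neighbours COL5A2 on chromosome 2, stood at 26.5 CPM in SKN3, 10.9 CPM in BICR78 and 1.01 CPM in Cal27, ratios to Cal27 of 26.3-fold (95% interval 17.0 to 43.0) and 10.8-fold (95% interval 6.89 to 17.8). Of the type I chains, COL1A1 was 2.59-fold higher in BICR78 than in Cal27 and COL1A2 was lower than in Cal27 in both lines, at 1.43 CPM in SKN3, 1.73 CPM in BICR78 and 3.74 CPM in Cal27. COL27A1 was lower in both lines, at 14.1 CPM in SKN3, 69.8 CPM in BICR78 and 145 CPM in Cal27.

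All 4 well counted type IV chains were higher in SKN3 than in Cal27. COL4A1 stood at 561 CPM and COL4A2 at 953 CPM in SKN3, 181 and 352 CPM in BICR78, and 109.9 and 249 CPM in Cal27. COL4A5 and COL4A6 stood at 278 and 249 CPM in SKN3, 149.6 and 106 CPM in BICR78, and 32.9 and 12.3 CPM in Cal27. The ratio of COL4A6 was 20.3-fold (95% interval 17.9 to 23.1) in SKN3 and 8.62-fold (95% interval 7.57 to 9.86) in BICR78, so the X-linked pair separated the lines more than COL4A1 and COL4A2 did. COL4A3, with no count in Cal27, had 22 counts in BICR78, at least 8.00-fold higher than the 3 counts that a count of 0 in Cal27 allows. COL4A4 had 55 counts in BICR78 and 2 in Cal27, a ratio of 30.0-fold (95% interval 7.92 to 254), and its span overlaps RHBDD1.

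Some FACIT and transmembrane collagens were counted mainly in SKN3. COL14A1 stood at 111 CPM in SKN3 (2023 counts), 0.418 CPM in BICR78 and 0.288 CPM in Cal27, a ratio of SKN3 to Cal27 of 387-fold (95% interval 177 to 1056). COL21A1 stood at 61.8 CPM in SKN3, 0.471 CPM in BICR78 and 1.92 CPM in Cal27. COL23A1 had 354 counts in SKN3 and none in Cal27, at least 135-fold higher than the 3 counts that a count of 0 in Cal27 allows. The type VI chains split the lines as well: COL6A2 stood at 34.8 CPM in SKN3, 1.26 CPM in BICR78 and 7.81 CPM in Cal27. COL9A2 was higher in both lines, at 29.8 CPM in SKN3, 39.8 CPM in BICR78 and 4.55 CPM in Cal27, while COL9A3 was lower in SKN3 at 3.14 CPM, against 15.0 CPM in Cal27. The junction collagens COL17A1 and COL7A1 differed little between the lines, unlike the type IV chains above. COL17A1 stood at 1067 CPM in SKN3, 1204 CPM in BICR78 and 1080.2 CPM in Cal27, and COL7A1 at 218 CPM in SKN3, 261 CPM in BICR78 and 220.3 CPM in Cal27. COL12A1 had a ratio to Cal27 of 0.991-fold (95% interval 0.949 to 1.03) in SKN3, an interval that includes no change, and of 0.449-fold (95% interval 0.425 to 0.474) in BICR78, where it was lower. The summed fibroblast markers stood at 181.7 CPM in SKN3, 168 CPM in BICR78 and 94.3 CPM in Cal27. Most of each sum was FBLN1, at 128 CPM in SKN3, 106 CPM in BICR78 and 58.1 CPM in Cal27. FAP stood at 7.10 CPM in SKN3, 3.71 CPM in BICR78 and 0.144 CPM in Cal27. LUM went the other way, at 0.220 CPM in SKN3, 0.157 CPM in BICR78 and 4.84 CPM in Cal27. So did PDGFRB, at 0.0550 CPM in SKN3, 0.105 CPM in BICR78 and 0.431 CPM in Cal27. PDGFRA had no count in SKN3. The part of the fibroblast markers in these differences was not tested.

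**Figure D4:**
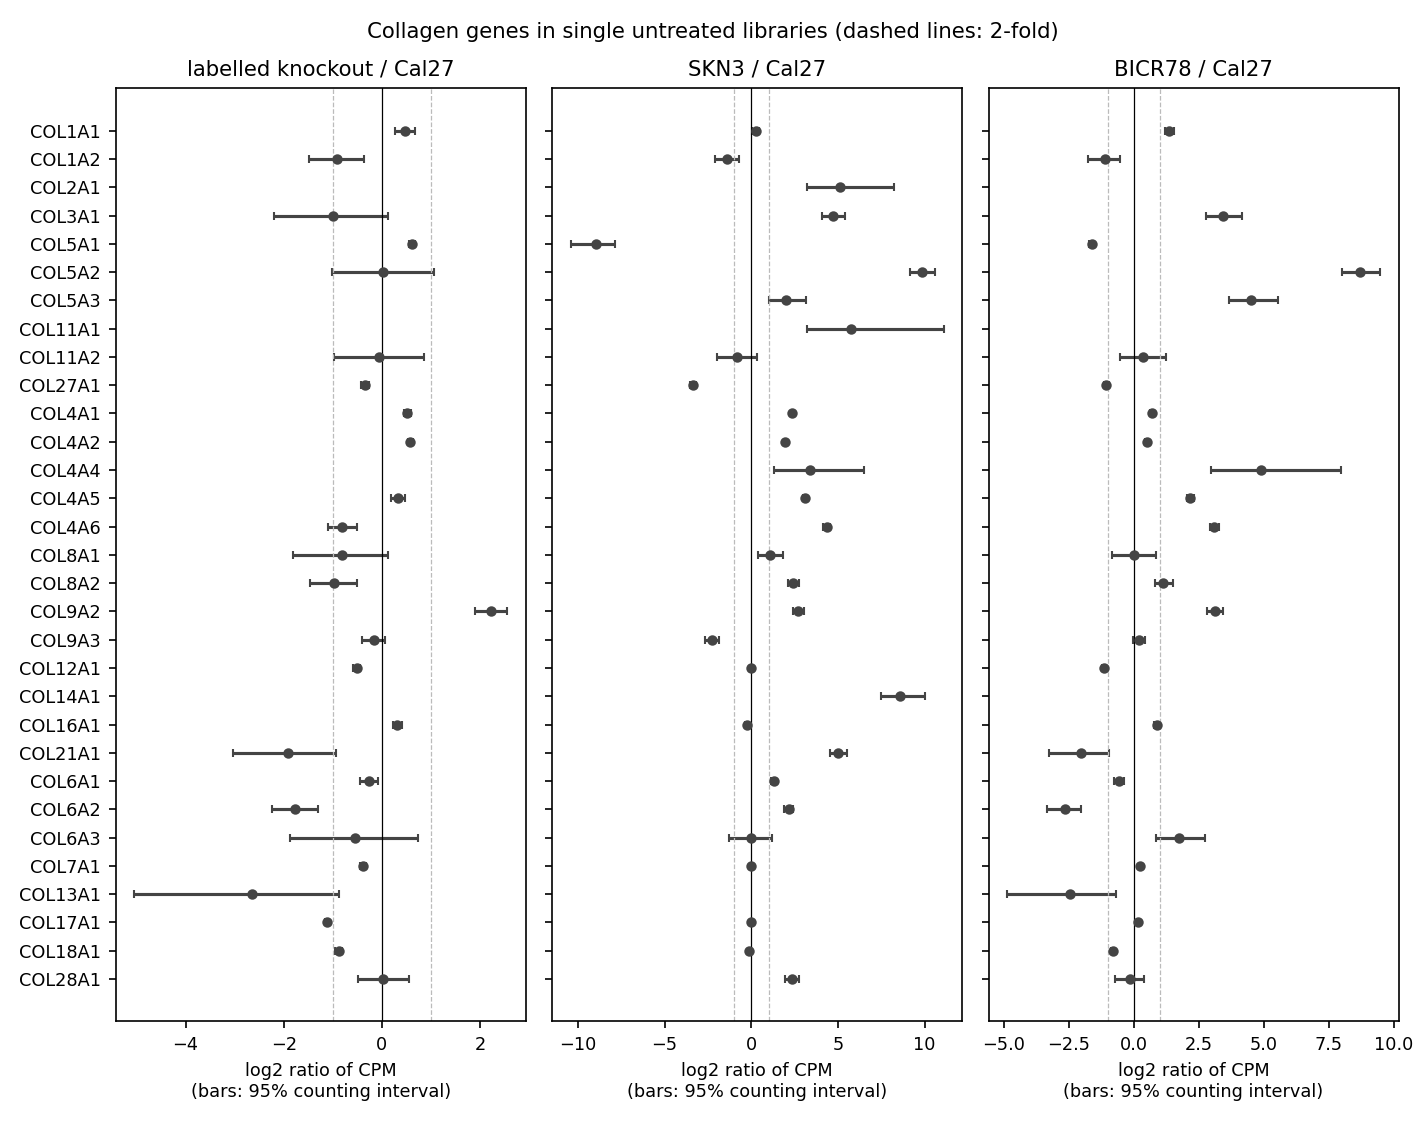
Log2 ratio of CPM to untreated Cal27 (x axis, a separate scale in each panel) with its 95% counting interval for collagen genes (rows) with at least 20 counts over both libraries and a count in each; 1 library per line. In SKN3, COL5A2 and COL14A1 lie far to the right and COL5A1 far to the left, while COL7A1, COL12A1 and COL17A1 lie close to 0.

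The other 19 members stayed under the filter in the DMSO and inhibitor set, with at most 12 counts in any of the 6 libraries. They are COL2A1, COL5A3, COL11A1 and COL24A1 among fibrillar collagens, COL4A3 and COL4A4, COL10A1, COL9A1, COL14A1, COL19A1, COL20A1 and COL22A1 among FACIT and network collagens, COL6A3, COL6A5 and COL6A6 of type VI, and COL15A1, COL23A1, COL25A1 and COL26A1. COL5A3, COL10A1 and COL22A1 had no count in these 6 libraries, and COL22A1 none in all 10. Cartilage collagens COL2A1 and COL11A1 reached 61 and 47 counts in SKN3, against 2 and 1 in untreated Cal27. With so few counts in the DMSO and inhibitor set, these 19 members were left out of its main test.

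Collagen chains are modified, folded, trimmed and cross-linked by other proteins, and cells read them through integrins and discoidin domain receptors. Of 63 such genes listed, 42 were tested. In the labelled knockout with DMSO against Cal27 with DMSO, 12 rose (28.6%) and 8 fell (19%), where 16.4% and 19.5% of all tested genes did. With EPZ-6438 against DMSO in the labelled knockout, 23 rose (54.8%) and 7 fell (16.7%), where 25.6% and 23.9% of all tested genes did. The medians over the list were 0.04 and 0.19 on the log2 scale, against -0.01 and 0.00 over all tested genes. Of the 42, P3H3 and TNXB passed the filter only through the EPZ-6438 libraries and LOXL1 only through Cal27 with DMSO, so their direction was fixed by the filter and the counts are a description.

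Of the enzymes that hydroxylate and glycosylate collagen, 7 of 13 rose and 3 fell with EPZ-6438, and 3 of 13 rose and 0 fell in the labelled knockout with DMSO (edgeR, adjusted p below 0.05). Among all tested genes 25.6% rose and 23.9% fell with EPZ-6438, and 16.4% rose and 19.5% fell in the labelled knockout. The 7 include P3H3, whose direction was fixed by the filter. Counts of this list and of the next ones are a description. PLOD2, the lysyl hydroxylase of the chain ends, stood at 482 and 437 CPM with EPZ-6438, 269 and 263 CPM in the labelled knockout with DMSO and 187 and 191 CPM in Cal27 with DMSO. It rose in both steps, by 0.79 ± 0.04 with the inhibitor and 0.49 ± 0.04 in the labelled knockout (log2, SE; adjusted p = 3.5e-11 and 9.6e-08). The prolyl hydroxylase subunits P4HA1 and P4HB rose with the inhibitor by 0.58 ± 0.04 and 0.43 ± 0.03 (log2, SE; adjusted p = 1.1e-08 and 8.0e-10). PLOD3 and COLGALT1 rose in the labelled knockout by 0.29 ± 0.05 and 0.13 ± 0.04 (log2, SE). The call of COLGALT1 was lost without replicate 2 of Cal27 (adjusted p = 0.15) and without replicate 1 of the labelled knockout with DMSO (adjusted p = 0.076).

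In the folding and export list, 2 of 9 rose and 1 fell in the labelled knockout, where 16.4% and 19.5% of all tested genes did. With EPZ-6438, 5 rose and 2 fell, where 25.6% and 23.9% of all tested genes did. SERPINH1, the collagen chaperone HSP47, did not pass in the labelled knockout (236 and 249.9 CPM against 235 and 230.5 CPM in Cal27) and rose with the inhibitor by 0.18 ± 0.03 (log2, SE; edgeR, adjusted p = 3.4e-04). MIA2, which loads bulky cargo into transport vesicles, rose with the inhibitor by 0.78 ± 0.05, and FKBP9 by 0.19 ± 0.04 (log2, SE; adjusted p = 2.4e-09 and 0.0011). In the labelled knockout FKBP9 fell by 0.20 ± 0.04, and MIA3 and TMEM38B rose by 0.22 ± 0.05 and 0.19 ± 0.05 (log2, SE). The call of TMEM38B, a channel of the endoplasmic reticulum, was lost with DESeq2 (adjusted p = 0.055) and without any one of the 4 DMSO libraries (edgeR, adjusted p from 0.053 to 0.073).

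Of the propeptide processing genes, 2 of 6 rose and 1 fell in the labelled knockout, where 16.4% and 19.5% of all tested genes did. With EPZ-6438, 3 rose, where 25.6% of all tested genes did. PCOLCE2, which enhances removal of the C-propeptide, stood at 6.41 and 6.55 CPM with EPZ-6438, 1.39 and 1.22 CPM in the labelled knockout with DMSO and 5.98 and 5.78 CPM in Cal27 with DMSO. It fell by 2.17 ± 0.24 in the labelled knockout and rose by 2.31 ± 0.24 with the inhibitor (log2, SE; edgeR, adjusted p = 2.0e-06 and 4.4e-07). The tolloid-like protease TLL2 rose by 1.06 ± 0.17 in the labelled knockout and by 0.87 ± 0.14 with the inhibitor (log2, SE). TLL1 rose in the labelled knockout by 0.80 ± 0.28, and BMP1, the main C-proteinase, rose with the inhibitor by 0.20 ± 0.07 (log2, SE). The call of TLL1 was lost with DESeq2 (adjusted p = 0.15), without replicate 2 of Cal27 (edgeR, adjusted p = 0.19) and without replicate 1 of the labelled knockout with DMSO (adjusted p = 0.20). That of BMP1 was lost with DESeq2 (adjusted p = 0.092), without replicate 1 of the labelled knockout with DMSO (edgeR, adjusted p = 0.20) and without replicate 2 of the EPZ-6438 libraries (adjusted p = 0.17).

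Of the 5 lysyl oxidases, which cross-link collagen and elastin, 1 rose and 2 fell in the labelled knockout, where 16.4% and 19.5% of all tested genes did. With EPZ-6438, 2 rose and 1 fell, where 25.6% and 23.9% of all tested genes did. LOXL4 stood at 5.14 and 7.82 CPM with EPZ-6438, 0.385 and 0.936 CPM in the labelled knockout with DMSO and 10.9 and 9.04 CPM in Cal27 with DMSO. It fell by 3.88 ± 0.32 in the labelled knockout and rose by 3.28 ± 0.34 with the inhibitor (log2, SE; edgeR, adjusted p = 5.1e-08 and 4.4e-07), values that were -4.66 and 4.06 without replicate 2 of the labelled knockout with DMSO. LOX stood at 56.4 and 60.1 CPM with EPZ-6438 and 33.9 and 37.1 CPM with DMSO and rose by 0.72 ± 0.07 (log2, SE; adjusted p = 1.8e-07). LOXL2 rose by 0.25 ± 0.03 in the labelled knockout and fell by 0.15 ± 0.03 with the inhibitor (log2, SE). LOXL1, at 0.385 and 0.360 CPM in the labelled knockout with DMSO and 1.53 and 1.11 CPM in Cal27, fell by 1.80 ± 0.51 (log2, SE). It passed the filter only through Cal27 with DMSO, so this direction was fixed by the filter. The call of LOXL1 was lost with DESeq2 (adjusted p = 0.11), without replicate 1 of Cal27 (edgeR, adjusted p = 0.11) and without replicate 1 or 2 of the labelled knockout with DMSO (adjusted p = 0.065 and 0.082).

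Among fibril organisers, 2 of 5 rose and 2 fell in the labelled knockout, where 16.4% and 19.5% of all tested genes did. With EPZ-6438, 3 rose and 1 fell, where 25.6% and 23.9% of all tested genes did. The 3 include TNXB, whose direction was fixed by the filter. Fibronectin (FN1), on which fibrils are laid down, rose in both steps, at 423 and 439 CPM with EPZ-6438, 282 and 283 CPM in the labelled knockout with DMSO and 158 and 154 CPM in Cal27 with DMSO. Its log2 increases were 0.61 ± 0.03 with the inhibitor and 0.86 ± 0.03 in the labelled knockout (SE; edgeR, adjusted p = 4.1e-11 and 3.6e-12). SPARC, a collagen-binding matricellular protein, stood at 362 and 361 CPM with EPZ-6438 and 506 and 503 CPM with DMSO and fell by 0.48 ± 0.03 (log2, SE; edgeR, adjusted p = 2.6e-10). THBS2 fell by 4.27 ± 0.59 in the labelled knockout and rose by 3.54 ± 0.64 with the inhibitor (log2, SE), at 1.01 and 1.72 CPM with EPZ-6438, 0.0770 and 0.144 CPM in the labelled knockout with DMSO and 2.12 and 2.52 CPM in Cal27.

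Of the 11 receptor genes listed 4 were tested, of which 2 rose and 2 fell in the labelled knockout, where 35.9% of all tested genes changed, and 3 rose with EPZ-6438, where 25.6% did. These are too few genes to read as a result about receptors. ITGA1, a collagen-binding integrin chain that favours type IV collagen, stood at 65.1 and 63.3 CPM with EPZ-6438, 3.47 and 2.81 CPM in the labelled knockout with DMSO and 6.78 and 6.52 CPM in Cal27 with DMSO. It fell by 1.09 ± 0.16 in the labelled knockout and rose by 4.35 ± 0.11 with the inhibitor (log2, SE; edgeR, adjusted p = 5.5e-05 and 2.4e-15). ITGA2, the corresponding chain for fibrillar collagen, stood at 197 and 192 CPM with EPZ-6438, 127 and 126 CPM in the labelled knockout with DMSO and 91.5 and 93.2 CPM in Cal27 and rose in both steps, by 0.62 ± 0.04 with the inhibitor and 0.45 ± 0.04 in the labelled knockout (log2, SE). Their shared partner ITGB1 rose by 0.14 ± 0.03 with the inhibitor and 0.10 ± 0.03 in the labelled knockout (log2, SE). The second of these calls was lost without replicate 1 of Cal27 (adjusted p = 0.18) and without replicate 1 or 2 of the labelled knockout with DMSO (edgeR, adjusted p = 0.083 and 0.11). DDR1, the epithelial discoidin domain receptor, fell by 0.16 ± 0.03 in the labelled knockout and did not pass with the inhibitor (log2 -0.01 ± 0.03, SE).

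**Figure D5:**
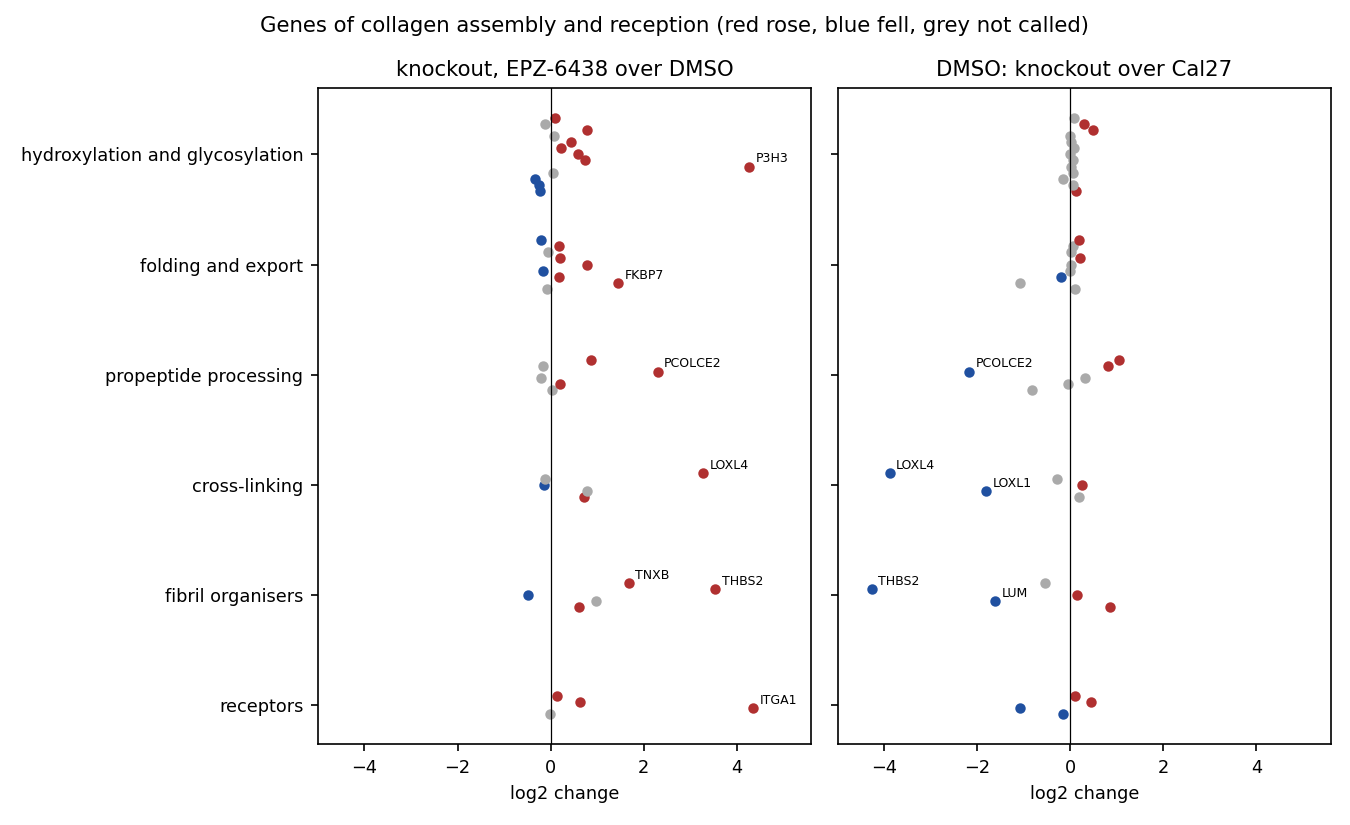
Log2 change (x axis) of the 42 tested genes of collagen modification, folding, processing, cross-linking, fibril organisation and reception (rows, 1 point per gene) for EPZ-6438 over DMSO in the labelled knockout (left) and the labelled knockout over Cal27 with DMSO (right); red rose, blue fell, grey did not pass. ITGA1 lies above 4 with the inhibitor, as does P3H3, which passed the filter only through the EPZ-6438 libraries, and LOXL4 and THBS2 lie below -3 in the labelled knockout.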

How the data were processed

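RNA was taken up in TRIzol and sequenced after depletion of ribosomal RNA, per the labels' protocols. The authors deposited a table of raw read counts by gene symbol, used unchanged. The submitters' processing notes list the build hg38 with Picard (2.23.1), featureCounts (1.6.1), HISAT2 (2.1.0) and CASAVA (1.7); what each did, the annotation and the strand setting were not stated. Groups follow the titles. One edgeR model (4.0.16, in R 4.3.3) with a term for group alone covered the 6 DMSO and inhibitor libraries: default filter, TMM scaling, quasi-likelihood test, p-values adjusted by Benjamini-Hochberg over all 13241 tested genes and called below 0.05. Its common biological coefficient of variation was 2.60%, with 3 residual degrees of freedom. The 4 untreated libraries were scaled on their own and given as ratios. The model was tested on simulated data. Promoter windows, from RefSeq (GRCh38.p14), were joined by gene ID. The collagen genes, the lists and the rule for named genes (every tested collagen gene, up to 3 genes per list and comparison with the lowest adjusted p, and SERPINH1, DDR1, ITGA2 and NSD1) were chosen with earlier results of these data known. Alternatives included DESeq2 (1.42.0). The CUT&Tag samples were not analysed here, and MRC2, on the receptor list, was not matched to a row.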

Additional observations from a re-analysis of the deposited data

Results flagged for a closer look

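The labelled knockout differed from Cal27 in opposite directions in the 2 sets for 4 collagen genes. In the untreated pair the log2 ratios were 0.62 (95% interval 0.56 to 0.68) for COL5A1 and 0.47 (95% interval 0.27 to 0.68) for COL1A1, where both knockout libraries with DMSO lay below both Cal27 libraries (log2 -0.61 ± 0.05 and -1.26 ± 0.18, SE). They were -0.38 (95% interval -0.44 to -0.31) for COL7A1 and -0.34 (95% interval -0.42 to -0.26) for COL27A1, where both knockout libraries with DMSO lay above (log2 0.41 ± 0.05 and 0.38 ± 0.05, SE). The difference between the sets was not tested, since the untreated pair holds 1 library of each.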

How the results depend on the processing

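No called collagen gene changed the sign of its log2 value under any alternative run, while uncalled ones near 0, such as COL4A6 and COL11A2, did under some: other scalings, DESeq2, no filter or at least 5 CPM in 2 libraries, a robust spread estimate, a fit of only the 2 groups, the replicate block and leaving out each library. Counts of collagen genes called moved by over 1.5 times under 1 test, chosen after seeing the data, against a log2 fold of 0.5. It left 3 that rose and 3 that fell in the labelled knockout with DMSO, 6 and 1 with EPZ-6438 against DMSO, and 3 and 1 with EPZ-6438 against Cal27. Over all genes it left 248 and 618, 1272 and 204, and 1053 and 424. Leaving out 1 library gave 5 to 6 that rose and 4 to 6 that fell in the first comparison, 9 to 11 and 6 to 7 in the second, and 7 to 8 and 5 to 8 in the third. The ratios of single untreated libraries kept their counts past 2-fold within 1.5 times.

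Replicate numbers do not pair the libraries: deviations of same-numbered libraries correlated at 0.01, -0.02 and 0.01. With the replicate block 6 collagen genes rose and 5 fell in the labelled knockout with DMSO, 10 and 7 with EPZ-6438 against DMSO, and 7 and 7 with EPZ-6438 against Cal27. With 12 or fewer counts in each of these libraries, 19 collagen genes did not pass the filter and were not tested in the main run.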
